A study of Mus musculus domesticus with 6 samples.

Results

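The exocyst is a complex of 8 proteins, encoded in the mouse by Exoc1 to Exoc8, and these 8 genes were chosen by symbol to ask whether a difference seen in Exoc4 was shared by its complex. All 8 had an entry among the 55359 in each table, and all 8 were among the 13117 genes with enough reads to be tested. Total RNA was sequenced from BFU-E, the early erythroid progenitors that form large red cell bursts in culture, sorted from fetal livers at E14.5 as GFP+ Lin- Kit+ cells with the lowest CD24 and CD71 staining (CD24/71 10%low). The 3 Cre-positive samples were Exosc3 fl/fl with Vav1-Cre, a recombinase expressed from a blood cell promoter, and the 3 Cre-negative samples were Exosc3 fl/fl without it, so both groups carried the floxed alleles. Exosc3 encodes a structural subunit of the RNA exosome, an RNA-degrading complex that is unrelated to the exocyst despite the similar name. The study's design text gives 3 litters with 2 samples from each, and the labels do not say which samples shared a litter or how the GFP gate was set for Cre-negative embryos.

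The exocyst tethers secretory and recycling vesicles to the plasma membrane before membrane fusion, and small GTPases of the Rab and Ral families recruit it to its sites of action. Its subunits pair in subcomplexes: Exoc1 to Exoc4 form one and Exoc5 to Exoc8 the other. Red cell precursors depend on this route to return the transferrin receptor to the cell surface, and a mutation of Exoc6 causes the iron-poor anemia of the hemoglobin-deficit mouse.

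Library totals ran between 89629949 and 124931215 expected counts, the read numbers that the authors' quantification assigned to genes. Exosc3 itself had 26.8, 22.1 and 30.2 counts per 1000000 counts of the library (CPM) in the Cre-positive libraries, against 51.9, 44.3 and 48.0 CPM in the Cre-negative libraries, and the GFP reporter had 4884, 3311 and 4206 counts against 91, 0 and 197. Both went with the labels, yet neither passed the edgeR test at an adjusted p under 0.05. Exosc3 had a log2 fold change of -0.87 (edgeR adjusted p = 0.259) and GFP of 5.48 (edgeR adjusted p = 0.187). A gene that did not pass is therefore not shown to be unchanged. All 10 erythroid progenitor markers listed were detected, with summed levels of 1716 to 2160 CPM in Cre-positive and 1545 to 1776 CPM in Cre-negative libraries. Of these 10, 1 was called higher and 0 lower (edgeR adjusted p = 0.00787), beside 0.122% of all genes tested. The groups did not overlap in CPM for 2 markers that were higher and 1 that was lower, beside 15.2% of all genes tested. The summed markers of 2 other lineages lay apart between the groups. Of 10 neutrophil and monocyte markers tested, edgeR called 0 (smallest edgeR adjusted p = 0.235) and DESeq2 3. Of 6 lymphoid markers tested, edgeR called 0 (smallest edgeR adjusted p = 0.278) and DESeq2 1. Over all genes tested, edgeR called 0.122% and DESeq2 3.45%. The groups did not overlap in CPM for 6 and 3 of these markers, all lower, beside 15.2% of all genes tested. The 11 neutrophil and monocyte markers, of which Ly6c2 was at 0 throughout, summed to 232 to 528 CPM in Cre-positive against 584 to 1531 CPM in Cre-negative libraries. The 9 lymphoid markers summed to 3.30 to 9.34 CPM against 40.8 to 132 CPM, with Dntt and Cd3e at 0 in every library and Cd79a at 0 in the Cre-positive ones. The megakaryocyte sums, 60.5 to 98.0 CPM against 42.1 to 86.0 CPM, overlapped, as did those of mast cells and basophils (2.87 to 5.33 against 0.665 to 9.46 CPM) and of endothelium and stroma (11.7 to 33.6 against 29.4 to 61.6 CPM). The hepatocyte list also overlapped, at 2.17 to 3.30 CPM against 1.08 to 10.1 CPM, and 5 of its 8 genes, Afp and Ttr among them, were at 0 in all libraries. The part of these cells in the exocyst values was not tested.

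Exoc4 was higher in Cre-positive BFU-E, and the other 7 subunits did not pass the test in either direction. The exocyst as a set of transcripts therefore had 1 member called higher and 0 lower. Across all 13117 genes tested, 0.122% were called, all 16 of them higher. None of the other 7 subunits had an unadjusted p under 0.05, which 8.23% of all genes had, and DESeq2 and limma-voom also called Exoc4 alone among the 8, beside 3.45% and 0.152% of all genes. Exoc4 was the reason these genes were chosen, so its own difference is given as a description and nothing is read from that count. In bulk RNA, more cells of a type and more RNA per cell cannot be told apart.

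Exoc4 (ENSMUSG00000029763) encodes the Sec8 subunit, which belongs to the same subcomplex as Exoc1, Exoc2 and Exoc3. Its expected counts were 27895, 18183 and 24979 in the Cre-positive libraries and 7776, 7298 and 11376 in the Cre-negative libraries. Scaled to library size, these were 225, 205 and 217 CPM against 80.8, 69.6 and 91.6 CPM. Every Cre-positive library lay above every Cre-negative one, with a wide gap between the groups and little spread among the Cre-positive libraries. The means were 216 ± 9.61 CPM in Cre-positive and 80.7 ± 10.97 CPM in Cre-negative BFU-E (SD, n = 3 each), a ratio of 2.67. The edgeR estimate of the log2 fold change was 1.42 (SE 0.13). Groups that do not overlap in CPM were found for 15.2% of all genes tested, and for 7.53% with the Cre-positive libraries higher.

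**Figure D1:**
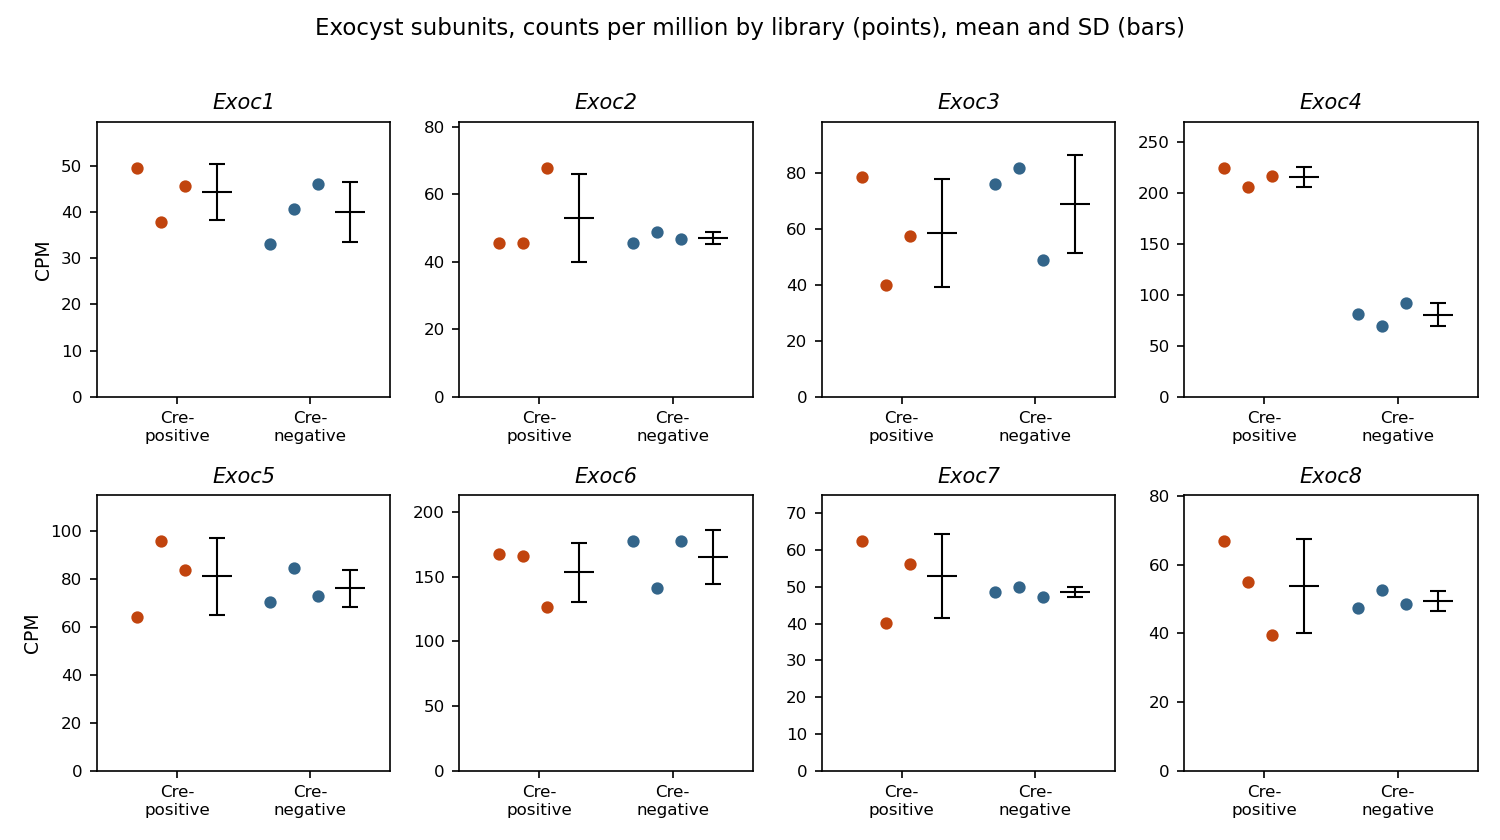
CPM of each exocyst subunit in the 3 Cre-positive (orange) and 3 Cre-negative (blue) libraries, with the group mean and SD as black bars beside the points and each vertical axis starting at 0. The groups lie apart for Exoc4, at 205 to 225 CPM against 69.6 to 91.6 CPM, and overlap for the other 7 subunits.

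The partners of Exoc4 in its own subcomplex stayed within the spread of the libraries. Exoc1 (Sec3, ENSMUSG00000036435), which helps anchor the complex at the plasma membrane through phosphoinositide lipids, had 49.6, 37.8 and 45.7 CPM in Cre-positive and 33.1, 40.7 and 46.03 CPM in Cre-negative libraries. These ranges overlapped over most of their length. The log2 fold change was 0.15 with a 95% interval of -0.33 to 0.64 and an adjusted p of 0.976 by edgeR's quasi-likelihood test with Benjamini-Hochberg adjustment over all genes tested, as for each edgeR value here.

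Exoc2 (Sec5, ENSMUSG00000021357), the subunit that binds RalA and RalB, had 45.4, 45.5 and 67.9 CPM in Cre-positive and 45.6, 48.9 and 46.8 CPM in Cre-negative libraries. The Cre-positive library of replicate 3 was high, and the other 2 Cre-positive libraries lay just under the Cre-negative ones. The log2 fold change was 0.17 (95% interval -0.31 to 0.64, edgeR adjusted p = 0.966).

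Exoc3 (Sec6, ENSMUSG00000034152), which binds plasma membrane SNARE proteins, had 78.5, 40.02 and 57.5 CPM in Cre-positive and 75.9, 82.0 and 49.0 CPM in Cre-negative libraries. Both groups held a high and a low library, so that they overlapped almost fully. Its log2 fold change of -0.23 was the lowest of the 8 (95% interval -0.85 to 0.38, edgeR adjusted p = 0.962).

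The other subcomplex gave the same picture. Exoc5 (Sec10, ENSMUSG00000061244), the subunit that links to Exoc6, had 63.8, 95.6 and 83.4 CPM in Cre-positive and 70.4, 84.6 and 72.8 CPM in Cre-negative libraries. The lowest and the highest of these 6 values were both Cre-positive, and the log2 fold change was 0.09 (95% interval -0.31 to 0.50, edgeR adjusted p = 0.994).

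Exoc6 (Sec15, ENSMUSG00000053799), the subunit that binds Rab11 on recycling vesicles and is mutated in the hemoglobin-deficit mouse, had 167, 166 and 127 CPM in Cre-positive and 177, 141 and 177 CPM in Cre-negative libraries. The lowest library was Cre-positive, but the remaining Cre-positive libraries lay between the Cre-negative ones. The log2 fold change was -0.11, and its 95% interval of -0.44 to 0.22 was the narrowest among these 7 subunits (edgeR adjusted p = 0.971).

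Exoc7 (Exo70, ENSMUSG00000020792), which binds membrane lipids, had 62.4, 40.1 and 56.2 CPM in Cre-positive and 48.5, 49.8 and 47.1 CPM in Cre-negative libraries. Exoc8 (Exo84, ENSMUSG00000074030), a second binder of the Ral GTPases, had 66.8, 54.8 and 39.5 CPM against 47.2, 52.7 and 48.5 CPM. In both genes the Cre-negative libraries lay close together and the Cre-positive libraries spread around them on both sides. The log2 fold changes were 0.13 for Exoc7 (95% interval -0.34 to 0.59, edgeR adjusted p = 0.987) and 0.12 for Exoc8 (95% interval -0.37 to 0.61, edgeR adjusted p = 0.991).

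Over the 7 subunits other than Exoc4, the log2 fold changes had a median of 0.12, against -0.01 over all genes tested, and their 95% intervals reached at most 0.64 upward and -0.85 downward. Their summed level was 534, 480 and 477 CPM in the Cre-positive libraries and 498, 500 and 488 CPM in the Cre-negative libraries, with means of 497 ± 32.1 and 495 ± 6.67 CPM (SD, n = 3 each). The Cre-negative sums lay inside the range of the Cre-positive ones. Exoc4 stood at 2.94, 3.00 and 3.18 times the mean CPM of the other 7 in Cre-positive libraries, against 1.13, 0.975 and 1.31 times in Cre-negative libraries. In TPM, a scale that divides by transcript length, these ratios were 2.08, 2.53 and 2.25 against 1.06, 0.613 and 1.85. Exoc4 was chosen for its difference, so the ratios are a description. Summed over all 8 subunits the level was 712 ± 40.1 CPM in Cre-positive and 576 ± 5.55 CPM in Cre-negative BFU-E (SD, n = 3 each), without overlap. That sum includes Exoc4, which was chosen for its difference, and without Exoc4 the sums overlapped.

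**Figure D2:**
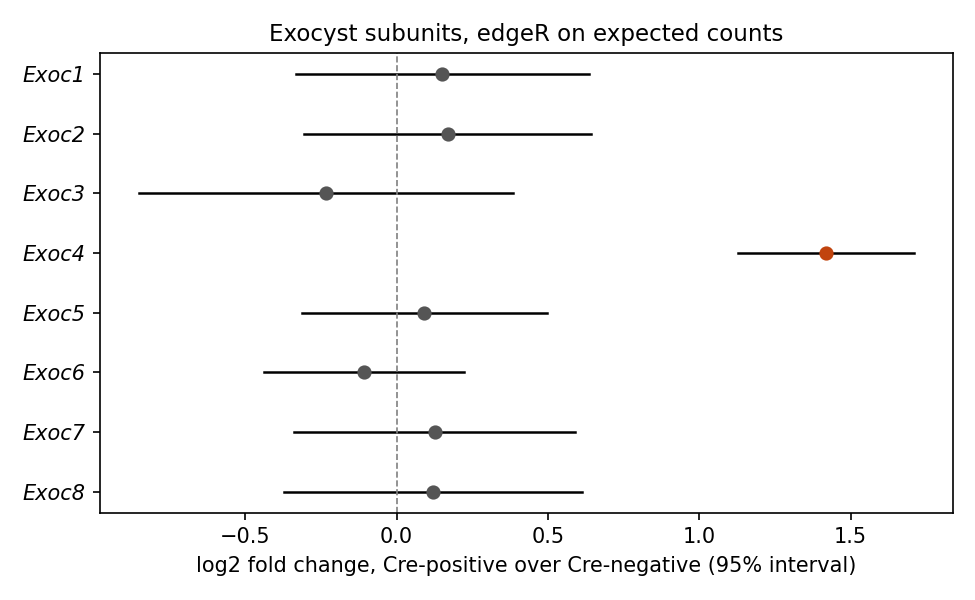
Log2 fold change of each subunit, Cre-positive over Cre-negative, from edgeR on the expected counts; points are the estimates, lines their 95% intervals and the dashed line marks no difference. Exoc4 (orange) stands at 1.42, while the intervals of the other 7 subunits all include 0.

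The spread within groups depended on the subunit and the scale. The coefficient of variation of Exoc7 was 21.8% among Cre-positive and 2.77% among Cre-negative libraries in CPM, and that of Exoc2 was 24.4% and 3.64%, while that of Exoc4 was 4.46% and 13.6%. Across the 8 subunits the median coefficient of variation was 20.8% in Cre-positive and 11.3% in Cre-negative libraries, beside 14.1% and 14.2% over 3064 genes with similar counts. In TPM the members' median ran the other way, at 21.3% in Cre-positive and 27.7% in Cre-negative libraries, beside 19.4% and 19.3%. With 3 libraries a group these are descriptions only. The lowest count of any subunit in any library was 3189, for Exoc1. Reads copied by PCR are not independent molecules: genes seen in 1 library only had a median of 108 counts, and 3189 counts are 29.5 times that.

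A count depends on transcript length as well as on the number of RNA molecules, and the deposited tables give for each gene and library an effective length, which moves with the mix of transcripts that the quantification assigned. TPM values divide by this length and then scale every library to the same total. On that scale Exoc4 had 79.5, 75.4 and 73.3 TPM in Cre-positive and 41.96, 23.2 and 63.8 TPM in Cre-negative libraries. The Cre-positive libraries again lay above all Cre-negative ones, but the Cre-negative libraries were now far apart. No overlap in TPM was found for 13.5% of all genes tested, and for 5.87% with the Cre-positive libraries higher. The means were 76.0 ± 3.14 and 43.0 ± 20.3 TPM (SD, n = 3 each), and their ratio of 1.77 compares with 2.67 in CPM. Without Cre-negative replicate 3 that ratio was 2.33, and without Cre-negative replicate 2 it was 1.44.

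The gap between the scales came with the length assigned to Exoc4 in the Cre-negative libraries. Its effective length was 3080, 3030 and 3290 bases in the Cre-positive libraries and 2157, 3355 and 1670 bases in the Cre-negative libraries. Replicates 1 and 3 of the Cre-negative group were short, while replicate 2 was the longest of all 6. The mean difference of 740 bases had an exact two-sided permutation p of 0.4 (Benjamini-Hochberg adjusted p = 0.5 over the 8 subunits). The smallest p possible in this test was 0.1, above the threshold, so no length difference could have passed. Whether the length of Exoc4 differed between the groups is therefore not decided by it. A length that varied between libraries was common. The longest over the shortest effective length was 2.01 for Exoc4, and 35.1% of the 10636 tested genes with several transcripts had a ratio at least as large.

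**Figure D3:**
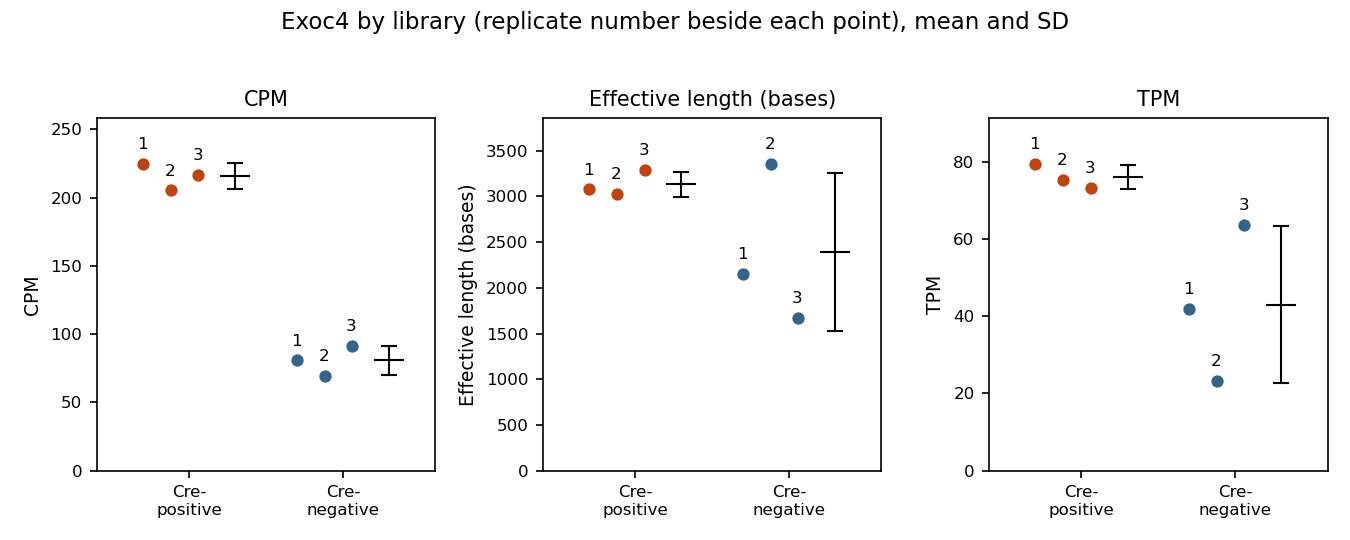
Exoc4 in CPM, effective transcript length in bases and TPM, by library, with the replicate number above each point and the group mean and SD as bars; all axes start at 0. The CPM values of the Cre-negative libraries lie together at 69.6 to 91.6, whereas their lengths, 1670 to 3355 bases, and TPM, 23.2 to 63.8, are spread.

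When each gene's effective length entered the fit as an offset, the log2 fold change of Exoc4 was 0.86 and it no longer passed the threshold, and 0.0457% of all genes tested were called. On log2(TPM + 1) with limma the difference of Exoc4 was 0.92, again not past the threshold, and 0.0457% of genes were called there too. In both, Exoc4 was higher in Cre-positive BFU-E. Under those length-scaled fits the signs of Exoc1, Exoc2 and Exoc5 turned, to -0.45, -0.13 and -0.34 with length offsets, none of them past the threshold.

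The transcripts that the quantification had to separate can be seen in the annotation. The deposited tables list 10 transcripts for Exoc4, and all 10 were found by identifier in the GENCODE M21 annotation of the build GRCm38, an older build than the GRCm39 of the files. Of these, 3 are coding. The full-length transcript ENSMUST00000052266 has 4824 bases, 18 exons and 2925 coding bases. The shorter ENSMUST00000090381 has 2598 bases, 10 exons and 1566 coding bases, and ENSMUST00000115080 has 2369 bases, 10 exons and 1518 coding bases. The remaining 7 are not coding. The stretch where the coding sequence of ENSMUST00000090381 leaves the full-length one shows which reads could tell these 2 transcripts apart. The 30 bases in lower case are shared, up to coding base 1420 counted from the first base of the start codon, and the 30 bases in capitals follow it in each transcript and differ between these 2:
ENSMUST00000052266: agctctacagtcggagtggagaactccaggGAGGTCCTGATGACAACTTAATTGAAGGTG
ENSMUST00000090381: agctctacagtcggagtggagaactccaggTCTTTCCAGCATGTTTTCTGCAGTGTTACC
Past this point the full-length transcript has 1505 further coding bases and ENSMUST00000090381 has 146. ENSMUST00000115080 follows the full-length coding sequence up to base 1517, through the capitals printed for it, and adds 1 coding base; from there the full-length transcript has 1408. Up to base 1420 the 3 coding sequences are the same, so reads there do not separate them.

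Effective length also varied for other subunits. Exoc5 was the one member whose groups did not overlap, with 4550, 4971 and 4356 bases in Cre-positive and 3786, 2927 and 3877 bases in Cre-negative libraries. All Cre-positive libraries were assigned longer transcripts. The difference of 1096 bases had an exact two-sided permutation p of 0.1, the smallest that 3 libraries against 3 allow, and an adjusted p of 0.5 over the 8 subunits. Such a separation in effective length was found for 10.1% of the 10636 tested genes with several transcripts, and for 3.89% in this direction, and for 1 of the 7 subunits with several transcripts. The 2 coding transcripts of Exoc5 differ strongly in length, at 12699 and 2582 bases in GENCODE M21.

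Exoc1 had the largest ratio of longest to shortest effective length among the 8, at 2.25, with 2075, 3002 and 2780 bases in Cre-positive and 2819, 1335 and 1539 bases in Cre-negative libraries, and the Cre-negative group held both the shortest values and 1 long one. Exoc3 was assigned short transcripts throughout, 949, 646 and 729 bases in Cre-positive and 657, 1058 and 1069 bases in Cre-negative libraries, although its full coding transcript has 4922 bases. Exoc6 was steady, between 2858 and 3210 bases over the 6 libraries. Exoc8, the one subunit with a single transcript in the tables (4598 bases), ran between 4262 and 4267 bases. For the 6 subunits with several transcripts apart from Exoc5, and for Exoc8, the exact permutation p lay between 0.3 and 0.5.

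**Figure D4:**
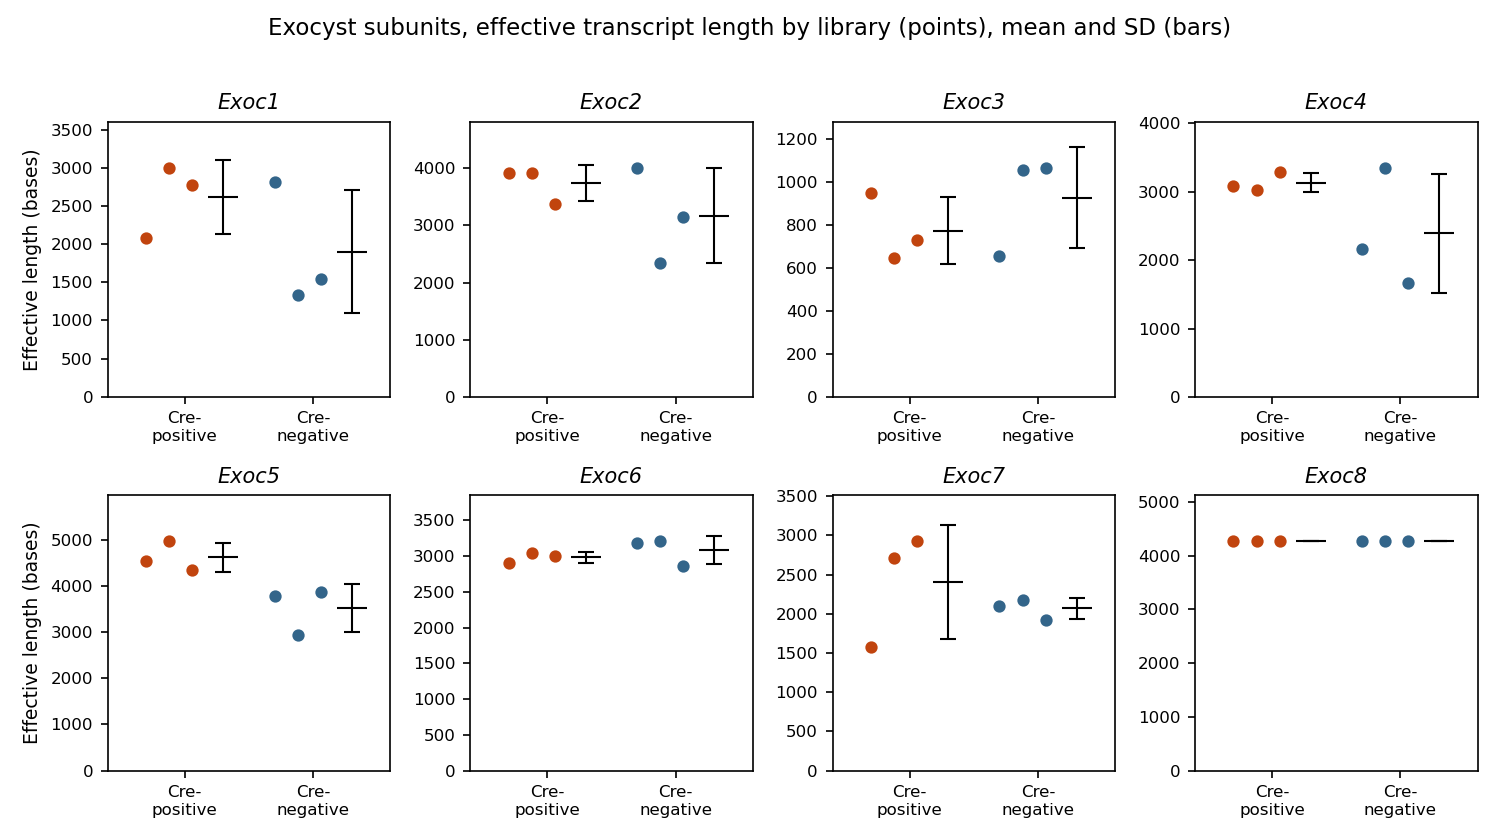
Effective transcript length in bases of each subunit in the 3 Cre-positive (orange) and 3 Cre-negative (blue) libraries, with the group mean and SD as bars and axes starting at 0. Exoc5 is the subunit whose groups lie apart, and Exoc8 is flat at 4262 to 4267 bases. Exoc1, Exoc2, Exoc3 and Exoc4 spread widely among the Cre-negative libraries, and Exoc7 among the Cre-positive ones, at 1574 to 2926 bases.

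Per length, the transcript levels of the subunits differed widely. In Cre-positive BFU-E the order by mean TPM was Exoc3, Exoc4, Exoc6, Exoc7, Exoc1, Exoc5, Exoc2 and Exoc8, from 82.2 ± 11.7 TPM for Exoc3 to 13.9 ± 3.39 TPM for Exoc8 (SD, n = 3). In Cre-negative BFU-E it was Exoc3, Exoc6, Exoc4, Exoc1, Exoc7, Exoc5, Exoc2 and Exoc8, from 89.8 ± 38.3 TPM to 13.1 ± 0.697 TPM (SD, n = 3). The high values of Exoc3 went with the short transcripts assigned to it. Exoc6 averaged 56.8 ± 8.59 TPM in Cre-positive and 61.2 ± 11.5 TPM in Cre-negative BFU-E. In the Cre-positive libraries Exoc3 and Exoc4 did not differ beyond their spread, nor did the neighbours from Exoc7 down to Exoc8. In the Cre-negative libraries, Exoc3, Exoc6 and Exoc4 overlapped with one another.

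Exoc4 made up 22.9%, 26.6% and 24.3% of the summed exocyst TPM in the Cre-positive libraries and 13.2%, 8.05% and 20.9% in the Cre-negative libraries. It was the one subunit whose shares did not overlap between the groups, with means of 24.6 ± 1.84% and 14.04 ± 6.48% (SD, n = 3 each). Exoc4 was chosen for its difference, so its higher share follows from that choice and is given as a description only. The summed TPM of the complex, 311 ± 32.5 in Cre-positive and 304 ± 15.5 in Cre-negative BFU-E, overlapped, unlike the summed CPM.

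The chromosomal neighbours of Exoc4 were read to see whether genes beside it moved. In the gene order of RefSeq's GRCm38.p6 annotation, Chchd3, which encodes a protein of the mitochondrial inner membrane, lies on one side at 129 ± 10.1 CPM in Cre-positive and 117 ± 10.5 CPM in Cre-negative BFU-E (SD, n = 3 each). Its log2 fold change was 0.14 (SE 0.13, edgeR adjusted p = 0.934). On the other side, Slc35b4, a nucleotide sugar transporter, had 27.0 ± 2.24 and 32.2 ± 8.13 CPM (log2 fold change -0.26, SE 0.27, edgeR adjusted p = 0.954), and Lrguk had few reads, at 1.66 ± 1.13 and 1.24 ± 0.349 CPM (log2 fold change 0.42, SE 1.504). The other 3 neighbours, Gm1401, Gm22321 and Gm13853, were at 0 in every library. None of the 3 neighbours with reads passed the test.

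Genes that overlap a subunit can share its reads, since the strand setting of the counting is not given in the sources used here. Within Exoc4 in GENCODE M21 lie Gm13854 and Gm43164 on the opposite strand, both at 0 in all libraries, and Gm43168 on the same strand. Gm43168 had 186, 37 and 461 counts in Cre-positive and 0, 0 and 603 counts in Cre-negative libraries, far below the counts of Exoc4. Exoc5 overlaps Ap5m1 on the opposite strand, which had 2478 to 3906 counts in Cre-positive and 2628 to 2912 counts in Cre-negative libraries and a log2 fold change of 0.13 (SE 0.27, edgeR adjusted p = 0.995). Exoc5 also overlaps Gm49204 on the same strand, at 88 to 734 counts in Cre-positive and 413 to 531 counts in Cre-negative libraries.

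The genes whose pattern over the 6 libraries was most like that of Exoc4 were Nprl3, Plekho2, Cd81, Ptp4a3 and Mtx3. Likeness was the root mean square difference of centred log2 CPM over the 6 libraries. The search covered 8026 genes with at least 1000 counts on average, leaving out those with provisional names such as Gm or Rik symbols. The difference was 0.18 for Nprl3, 0.18 for Plekho2, 0.19 for Cd81, 0.19 for Ptp4a3 and 0.21 for Mtx3. Since Exoc4 separates the groups, genes chosen this way separate them too. Nprl3 averaged 22.0 ± 0.522 CPM in Cre-positive and 9.98 ± 0.129 CPM in Cre-negative BFU-E, and Cd81, a tetraspanin of the cell surface, averaged 128 ± 6.48 and 59.6 ± 6.99 CPM (SD, n = 3 each). By the same measure the other exocyst subunits stood at 0.66 for Exoc1, the nearest, to 0.94 for Exoc3, at ranks 1556, 2048, 2266, 2814, 3049, 4306 and 6587 among these genes.

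None of the paralogs of exocyst subunits passed the test. Of 6 listed, 3 were tested and 0 were called by edgeR, DESeq2 or limma-voom, with 1 at an unadjusted edgeR p under 0.05, beside 8.23% of all genes. Exoc6b, the second Sec15 gene, had 15.8, 8.81 and 15.5 CPM in Cre-positive and 14.4, 25.5 and 25.0 CPM in Cre-negative libraries. The groups overlapped through the low Cre-negative library of replicate 1, and the log2 fold change was -0.69 (SE 0.38, edgeR adjusted p = 0.754). The effective length of Exoc6b was also unsteady, between 1880 and 5103 bases in Cre-positive and between 1290 and 5107 bases in Cre-negative libraries. Tnfaip2, a relative of Exoc3 also called M-Sec, averaged 262 ± 41.6 CPM in Cre-positive and 204 ± 30.5 CPM in Cre-negative BFU-E (log2 fold change 0.36, SE 0.15, edgeR adjusted p = 0.558). Exoc3l2 averaged 8.04 ± 4.32 and 12.6 ± 5.604 CPM (log2 fold change -0.64, SE 0.62, edgeR adjusted p = 0.941). Exoc3l had 0, 68 and 0 counts in Cre-positive and 378, 0 and 0 counts in Cre-negative libraries, Exoc3l4 was at 0 in all, and Exoc1l had no entry.

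The GTPases that recruit the exocyst, with their exchange factors and regulators, did not pass the test either. Of 21 listed, 20 were tested and 0 were called by edgeR, with 3 at an unadjusted p under 0.05 (8.23% of all genes tested), 1 called by DESeq2, Ralgapa2 (3.45% of all genes), and 0 by limma-voom. Rgl3 was at 0 in all libraries, and the median log2 fold change was -0.03, against -0.01 over all genes tested. The 2 with the smallest p were Ralgapa2, a subunit of the complex that switches off RalA and RalB, and Rab11b, a recycling endosome GTPase. Ralgapa2 averaged 93.5 ± 23.3 CPM in Cre-positive and 62.5 ± 1.96 CPM in Cre-negative BFU-E (log2 fold change 0.58, SE 0.19, edgeR adjusted p = 0.390). Rab11b averaged 58.5 ± 9.17 and 79.7 ± 1.35 CPM (log2 fold change -0.45, SE 0.16, edgeR adjusted p = 0.478). In CPM the groups did not overlap for either gene, nor for 3 other genes of this list, with 3 of the 5 higher and 2 lower. Over all genes tested 15.2% did not overlap in CPM. Rab11b overlapped in TPM, at 27.7 ± 4.41 in Cre-positive and 29.6 ± 4.11 in Cre-negative BFU-E (SD, n = 3 each). Its mean effective length was 2341 bases in Cre-positive and 3088 bases in Cre-negative libraries.

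Proteins of the membrane fusion step that follows tethering were listed with 16 members, of which 14 were tested and 0 were called by edgeR, DESeq2 or limma-voom. The median log2 fold change was 0.22, against -0.01 over all genes tested, and 1 gene had an unadjusted edgeR p under 0.05, beside 8.23% of all genes. Napa, the alpha-SNAP that helps recycle SNARE complexes, averaged 64.0 ± 13.0 CPM in Cre-positive and 45.8 ± 4.35 CPM in Cre-negative BFU-E (log2 fold change 0.48, SE 0.20, edgeR adjusted p = 0.561). Snap23, a plasma membrane SNARE, averaged 124 ± 7.75 and 103 ± 2.61 CPM (log2 fold change 0.26, SE 0.12, edgeR adjusted p = 0.620). Stx3 was below the count filter and Vamp7 had no entry.

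The transferrin receptor cycle, the erythroid cargo route that the exocyst serves, also had 0 of its 13 tested genes called by edgeR, DESeq2 or limma-voom. The median log2 fold change was 0.04, against -0.01 over all genes tested, and 1 gene had an unadjusted edgeR p under 0.05, beside 8.23% of all genes. Tfrc, the transferrin receptor, had 214, 349 and 181 CPM in Cre-positive and 251, 302 and 170 CPM in Cre-negative libraries. Replicate 2 was the highest and replicate 3 the lowest library in both groups, which overlapped (log2 fold change 0.04, SE 0.26, edgeR adjusted p = 0.999). Vps29, a retromer subunit, averaged 16.0 ± 7.21 CPM in Cre-positive and 28.9 ± 6.32 CPM in Cre-negative BFU-E (log2 fold change -0.85, SE 0.38, edgeR adjusted p = 0.604). Slc11a2, the endosomal iron transporter DMT1, averaged 62.3 ± 6.76 and 45.8 ± 9.19 CPM (log2 fold change 0.45, SE 0.20, edgeR adjusted p = 0.630).

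Other multisubunit tethers, which act at the Golgi, the endosomes and the endoplasmic reticulum, were set beside the exocyst. All 39 subunits in 5 lists were tested, 0 were called by edgeR, DESeq2 or limma-voom, and 1 had an unadjusted edgeR p under 0.05, beside 8.23% of all genes tested. The list medians of the log2 fold change lay between 0.02 and 0.30, against -0.01 over all genes. Single values ran from -0.83 to 1.61, both in the TRAPP list, the latter above the 1.42 of Exoc4 but not past the threshold. In CPM the groups did not overlap for 4 of the 39 that were higher and 0 that were lower, beside 15.2% of all genes tested. The smallest adjusted p was that of Cog7, a Golgi tether subunit, with 60.6 ± 8.57 CPM in Cre-positive and 35.9 ± 13.4 CPM in Cre-negative BFU-E (SD, n = 3 each; log2 fold change 0.76, SE 0.27, edgeR adjusted p = 0.466).

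The remaining genes named from these lists were the 2 with the smallest p in each. Cog5, of the Golgi tether, had a log2 fold change of -0.34. Vps51 and Vps50 of the GARP and EARP tethers had -0.46 and 0.20, and Vps33b and Vps39 of the HOPS and CORVET tethers had 0.33 and -0.21. Rint1 and Zw10 of the NRZ tether had 0.40 and 0.30, and Trappc9 and Trappc3 of the TRAPP tethers had 0.49 and -0.54. The smallest edgeR adjusted p among these 9 genes was 0.635, for Trappc9.

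**Figure D5:**
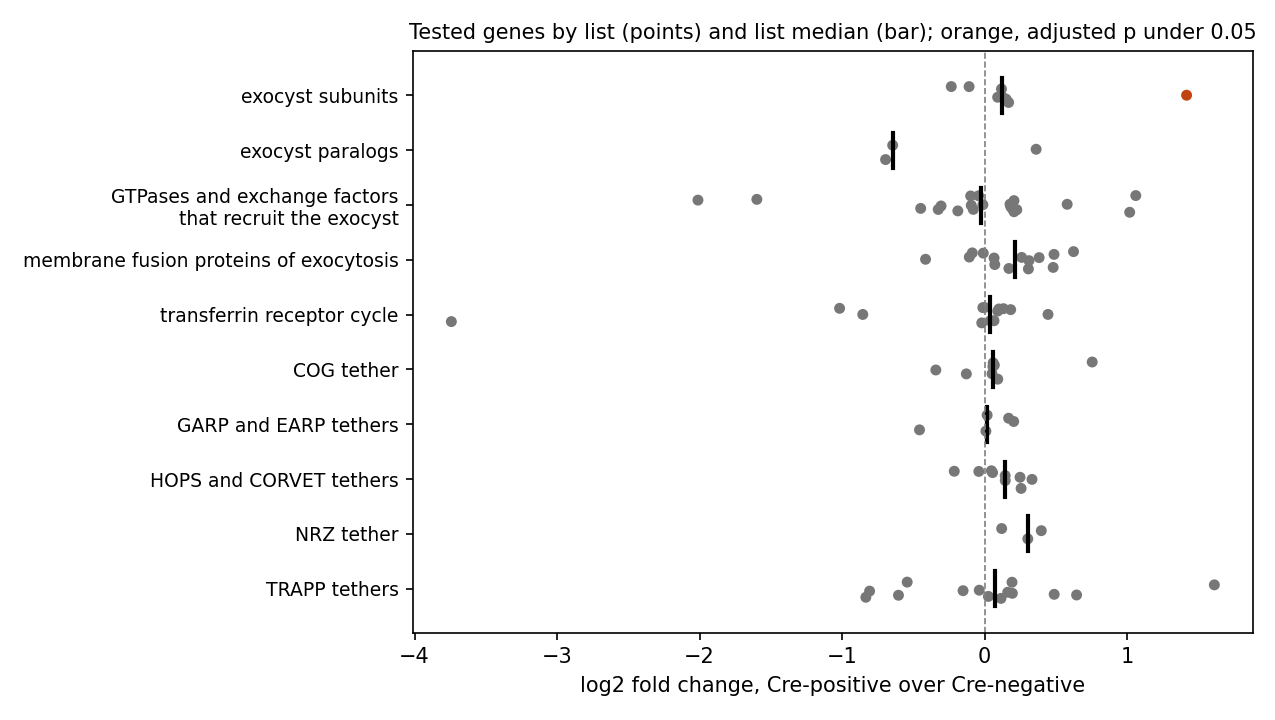
Log2 fold change, Cre-positive over Cre-negative, of every tested gene in the exocyst, its paralogs, its recruiting GTPases, the fusion proteins, the transferrin receptor cycle and 5 other tether lists; points are genes and black bars list medians. Exoc4 at 1.42 is the one gene past the adjusted p threshold of 0.05 in these lists.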

How the data were processed

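RNA was extracted and made into libraries with the Pico version of a stranded total RNA kit from Takara, per the labels' protocols. The submitters' processing notes name STAR 2.5.3a, RSEM 1.3.0 and the build GRCm39 (mm39). Which annotation release and strand setting were used was not stated in the labels or headers. The authors deposited, per the file headers, an expected count, TPM, FPKM and an effective length for each gene and library. FPKM served for 1 alternative. Of the expected counts 2.64% were not whole, and all were rounded. Genes were kept with filterByExpr, scaled by TMM (factors 0.988 to 1.017) and tested with edgeR 4.0.16 (R 4.3.3; glmQLFit, glmQLFTest) on group alone, with Benjamini-Hochberg adjustment over 13117 genes and a threshold of 0.05. Symbols were matched for 52081 of 55359 identifiers. Effective lengths were compared by exact permutation (scipy 1.17.1). The procedure was tested on simulated data. p-values measure only the spread between these samples.

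Alternatives were other scalings and filters, DESeq2 1.42.0, limma 3.58.1 (voom, and trend on log2(TPM + 1) and log2(TPM + 0.1)), length offsets, the replicate number as a block, and leaving out each library. The members and lists were chosen with earlier results of these data known. Named genes are all 8 members and Exoc6b, the other paralogs, the 2 smallest p of each partner and tether list, 3 neighbours on each side of Exoc4, Exosc3 and GFP, and the 5 genes most like Exoc4 in pattern (prior count 2). One lymphoid marker is not reported here and was left out of its list. Coordinates are not given because the annotation used is of another build.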

Additional observations from a re-analysis of the deposited data

How the results depend on the processing

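Exoc4 stayed higher in Cre-positive BFU-E under all 17 alternatives and past the threshold in 14; it was not past it with length offsets (log2 fold change 0.86, and 0 subunits called) or on log2(TPM + 1) (0.92) and log2(TPM + 0.1) (0.94), and the cause was not tested. Leaving out 1 library gave 1.32 to 1.52. Exoc4 was chosen for its difference in these same libraries, so these refits are a description only. Of the other subunits, none passed under any alternative. The sign turned with length offsets, log2(TPM + 1) and log2(TPM + 0.1) for Exoc1 (-0.45, -0.39, -0.41), Exoc2 (-0.13, -0.15, -0.16) and Exoc5 (-0.34, -0.34, -0.36), and for Exoc7 with both TPM fits (-0.093 and -0.10). Leaving out 1 library gave ranges across 0 for Exoc2 (-0.051 to 0.27), Exoc5 (-0.044 to 0.24), Exoc6 (-0.21 to 0.011), Exoc7 (-0.0098 to 0.29) and Exoc8 (-0.070 to 0.30). The median over the 8 subunits was 0.12, -0.09 with length offsets, and 0.03 to 0.18 without 1 library. Genes called higher, 16 in all, were 33 with no filter, 58 with a mean of at least 1000 counts, 235 by DESeq2, 6 with length offsets and 7 to 15 without 1 library; genes called lower were 0, and 6, 26 and 218 under the first 3 of these, and 0 to 3 without 1 library. The Exoc4 share of the complex differed by 10.5 percentage points in TPM, 16.3 in counts, 15.4 in CPM per kilobase of the longest coding transcript (chosen after seeing the data) and 7.55 to 13.98 without 1 library. Whether the replicate numbers mark litters is not known. Deviations of same-numbered samples correlated at 0.03, 0.05 and 0.07, and those of differently numbered samples at -0.05 to -0.005. Each sample correlated best with its own number. Correlations this small over all genes cannot decide whether the samples were pairs, so the block was kept as an alternative. With the replicate number as a block, 38 genes were called higher and 18 lower, and Exoc4 had 1.43. With 3 libraries a group, the widest interval among the other subunits, that of Exoc3, reached from -0.85 to 0.38.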
